A study of Homo sapiens with 6 samples.

Results

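The ELR CXC chemokines CXCL1, CXCL2, CXCL3, CXCL5, CXCL6 and CXCL8 were followed in SW839 cells, an established line of renal cell carcinoma (RCC), after knockdown of the E3 ubiquitin ligase RNF25. The members were chosen by gene symbol, and all 6 were among the 30267 genes of the deposited table. The 3 shRNF25 libraries came from cells carrying an RNF25 hairpin, and the 3 shControl libraries came from cells carrying the pLKO vector. According to the methods, both constructs were delivered by lentivirus and cells were selected with puromycin, and the labels name no other agent for either group. The library names of the knockdown group carry a single hairpin name (shRNF25B). In these libraries, effects of that hairpin on other transcripts and effects of RNF25 loss cannot therefore be told apart. In apoptosis-resistant RCC cells, the paper reported that wild-type RNF25, but not a catalytically inactive mutant, restored NF-κB activity after the knockdown. The design text calls the triplicates biological and the paper speaks of independent repeats, but the labels do not say at which step the 3 libraries of a group were separated, and the p-values measure the spread between these libraries.

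ELR CXC chemokines are small secreted proteins named for a glutamate-leucine-arginine motif in front of their CXC cysteines. They draw neutrophils through the receptors CXCR1 and CXCR2, bind heparan sulfate on cell surfaces, and are also known for promoting angiogenesis. Their genes lie together on chromosome 4, and their promoters are textbook targets of NF-κB, the pathway the study examined for RNF25. The question here was how each member of the group changed when RNF25 was lowered.

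Total RNA depleted of ribosomal RNA was sequenced, with 18647460 to 19943154 reads counted on genes per library. RNF25 itself stood at 694.2, 533.5 and 536.4 in shControl and at 214.1, 245.7 and 265.0 in shRNF25 (normalized counts, in replicate order), so the target was lower in every knockdown library, at 41.1% of the control mean. The most abundant transcript in every library, MT-CO1, took 4.54% of the reads in shControl replicate 1 and between 1.46% and 1.80% in the other libraries. No batch is labelled, but the control library names are not all of the same form while the knockdown names are, so any batch split along these groups and the hairpin cannot be told apart. Keratin transcripts of epithelial cells were abundant (KRT8 at 22206 to 38009), PAX8, a renal lineage factor, was at 76.7 to 140.3, and CA9, a marker of clear cell RCC, was low at 1.85 to 50.7. PAX2 and CDH16, also markers of renal epithelium, were not among the genes listed.

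The promoter letters that the members have in common are shown first, because the same stretch occurs in each of them. RefSeq promoters (GRCh38.p14), which run from 250 bases before to 50 bases after a gene's start, were searched on both strands for the κB-type motif GGAANNNCC, a longer κB form (GGG and CC with 5 free bases between them), the AP-1 motif TGANTCA, the C/EBP-type motif TTNCNNNAA and the TATA box TATAAA. The lines give 60 bases of each promoter on the strand of the gene, from base -120 to base -61, where -1 lies just before the start, and capitals mark a match to GGAANNNCC.
CXCL8 (chr4:73740449-73740508, plus strand): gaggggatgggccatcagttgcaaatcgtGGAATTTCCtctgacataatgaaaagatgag
CXCL6 (chr4:73836558-73836617, plus strand): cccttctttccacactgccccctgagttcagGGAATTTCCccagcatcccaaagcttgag
CXCL5 (chr4:73998738-73998797, minus strand): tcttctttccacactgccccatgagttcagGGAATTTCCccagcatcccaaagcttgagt
CXCL1 (chr4:73869273-73869332, plus strand): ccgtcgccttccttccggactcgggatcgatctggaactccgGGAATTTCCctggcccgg
CXCL2 (chr4:74099256-74099315, minus strand): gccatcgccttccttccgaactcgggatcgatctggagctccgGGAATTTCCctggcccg
CXCL3 (chr4:74038750-74038809, minus strand): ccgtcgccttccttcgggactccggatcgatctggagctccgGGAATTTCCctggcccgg
PPBP (chr4:73988251-73988310, minus strand): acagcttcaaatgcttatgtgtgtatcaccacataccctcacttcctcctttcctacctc

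All 6 members held a match to GGAANNNCC, which occurred in 20.1% of the 35116 promoters. The printed stretches of CXCL1, CXCL2 and CXCL3 are nearly alike, as are those of CXCL5 and CXCL6, so these matches are not independent of each other. The matched letters were GGAATTTCC in every member, beginning between base -91 in CXCL8 and base -77 in CXCL2. This exact word, which was singled out after it had been seen in the members, occurred in 0.461% of promoters. It overlaps a match to the longer form (58.7% of promoters) in each member except CXCL8, whose own match to that form lies further upstream. CXCL1, CXCL2 and CXCL3 held a further match to GGAANNNCC on the other strand from base -53 to base -45. TGANTCA (7.71% of promoters) was found in CXCL8 alone among the members, at base -137, as was TATAAA (11.5%). TTNCNNNAA (33.9%) was found in CXCL5 and CXCL6 and overlaps their κB-type letters. TATAAA was also found in PPBP and PF4V1, other chemokine genes of the same cluster, and neither κB form was found in these. The TATAAA letters begin at base -31 in CXCL8 and PPBP but at base -221 in PF4V1. PF4 had no entry among the promoters. A match describes letters, and binding was not measured here. In GENCODE 29 the genes begin 63 to 181 bases upstream of these RefSeq starts for the members other than CXCL1, whose starts are the same.

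**Figure D1:**
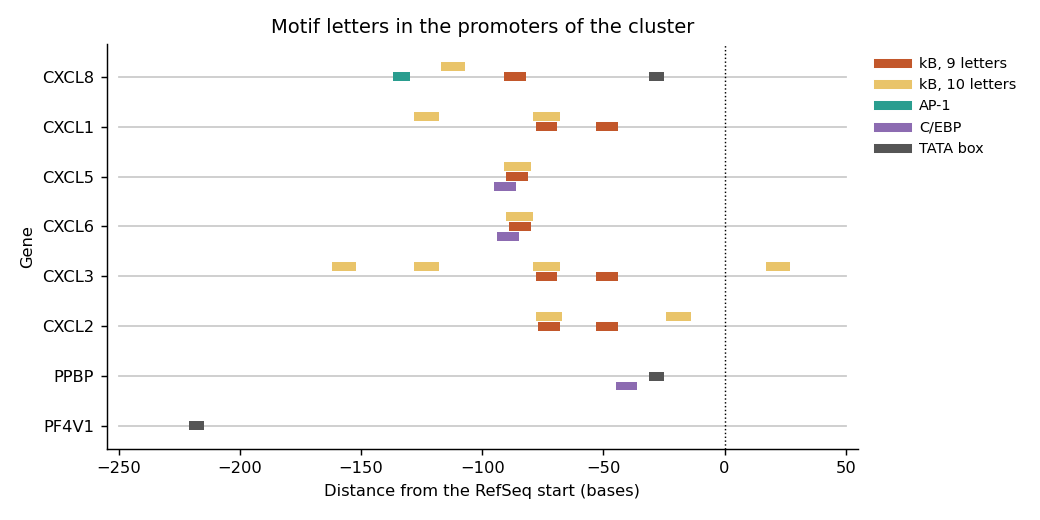
Matches to 5 motifs along the promoters of the 6 ELR CXC chemokine genes and of PPBP and PF4V1, by distance in bases from the RefSeq start (dotted line). Bars mark a match on either strand. A κB-type match of 9 letters lies between base -91 and base -69 in all 6 members, and none is found in PPBP or PF4V1. CXCL1, CXCL2 and CXCL3 hold a further match of this type from base -53 to base -45.

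The ELR CXC chemokines fell together, and by large factors. Their normalized counts summed to 74535, 71819 and 61738 in the shControl libraries and to 4918, 4429 and 6643 in the shRNF25 libraries. The mean of 69364 ± 6742 went to 5330 ± 1163 (SD, n = 3 libraries each), or 7.68% of the control mean. In reads, the 6 genes took 0.307% to 0.354% of a control library and 0.0243% to 0.0366% of a knockdown library.

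Each member was compared between groups with limma on log2(normalized count + 1), fitted on all 16554 genes that reached 10 normalized counts in 3 or more libraries. A gene was called when its Benjamini-Hochberg adjusted p was below 0.05 and its fold change at least 1.5, the criteria of the study. All 6 members were tested and all 6 were called lower, against 7.10% of all tested genes. A fall of at least 4-fold was called for 0.773% of tested genes and for all 6 members. Their median log2 fold change was -3.73, beside -0.01 for all tested genes. For every member each shRNF25 library was below each shControl library, as it was for 21.8% of all tested genes, while the reverse order, seen in no member, was found for 20.7%. The two-sided exact permutation test gave p = 0.1 for each member, the smallest value that 3 libraries against 3 allow.

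**Figure D2:**
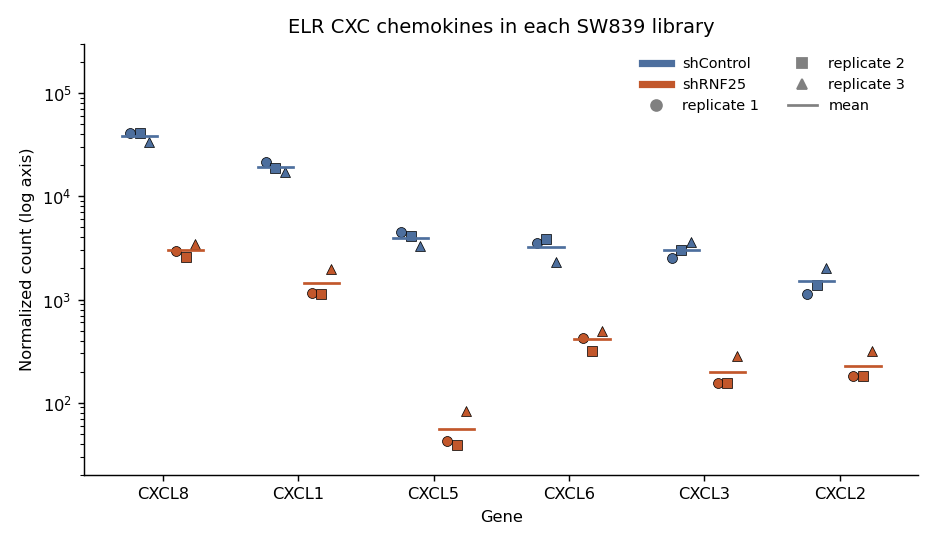
Normalized count (log axis) of each ELR CXC chemokine in each library, shControl in blue and shRNF25 in orange. Symbols mark the replicate and short lines the mean of 3 libraries. The groups do not overlap for any gene, and CXCL5 has the lowest shRNF25 values, between 38.8 and 83.9.

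CXCL8, the founding neutrophil chemokine, also called interleukin-8, binds both CXCR1 and CXCR2. The gene (ENSG00000169429.10) spans chromosome 4 from 73740506 to 73743716 on the plus strand of GRCh38 in GENCODE 29. Its normalized counts were 41214, 40816 and 33339 in shControl and 2956, 2597 and 3479 in shRNF25. CXCL8 was thus the most abundant member in every library, and its highest knockdown value was far under its lowest control value. The group means were 38456 ± 4436 and 3011 ± 443.7 (SD, n = 3 each), a log2 fold change of -3.68 with a standard error of 0.140 (limma, adjusted p = 1.49e-06).

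CXCL1, also called GROα, is an agonist of CXCR2 and lies on the plus strand from 73869393 to 73871242. It was counted at 21603, 18634 and 17154 in shControl and at 1165, 1136 and 1992 in shRNF25. Replicate 3 was the highest of the knockdown libraries and still lay far below each control. The mean fell to 7.48% of the control level, a log2 fold change of -3.78 with a standard error of 0.207 (limma, adjusted p = 1.11e-05). By RT-qPCR, the paper also reported lower CXCL1 after RNF25 knockdown in SW839 cells.

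CXCL3, or GROγ, is a close relative of CXCL1 and lies on the minus strand from 74036589 to 74038807. Its values were 2530, 2997 and 3619 in shControl and 154.0, 155.1 and 282.1 in shRNF25. The mean of 3049 ± 546.1 fell to 197.1 ± 73.7 (SD, n = 3 each), which is 15.5-fold lower, with a log2 fold change of -3.99 with a standard error of 0.236 (limma, adjusted p = 1.67e-05).

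CXCL2, or GROβ, is the last gene of the cluster, on the minus strand from 74097035 to 74099293. It was counted at 1125, 1389 and 1999 in shControl and at 179.5, 181.9 and 314.6 in shRNF25. It was the least abundant member in the controls by count and had the smallest change of the 6, a log2 fold change of -2.74 with a standard error of 0.258 (limma, adjusted p = 0.000186), or 6.68-fold between the means. CXCL1, CXCL2 and CXCL3 share sequence. Of the 50-base words in the longest coding transcript of each, 5.73%, 9.24% and 5.26% are also found in transcripts of another of these genes. Counting could have lost such reads or exchanged them among these genes. The read length is not given in the sources used here.

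CXCL5, or ENA-78, is an epithelial chemokine that acts on CXCR2, on the minus strand from 73995642 to 73998779. Its values were 4533, 4085 and 3326 in shControl and 42.8, 38.8 and 83.9 in shRNF25. The knockdown values rest on 47, 42 and 88 reads, so the level is low but well above a floor of 3 reads. The mean went from 3981 ± 610.1 to 55.2 ± 25.0 (SD, n = 3 each), 1.39% of the control level and 72.2-fold lower. The log2 fold change of -6.22 with a standard error of 0.265 (limma, adjusted p = 2.76e-06) was the fourth largest fall among all tested genes.

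CXCL6, or GCP-2, binds CXCR1 as well as CXCR2 and lies on the plus strand from 73836497 to 73849064, where the pseudogene PPBPP1 overlaps it. It was counted at 3529, 3898 and 2301 in shControl and at 420.1, 320.5 and 490.9 in shRNF25. The fall was 7.90-fold between the means, with a log2 fold change of -2.96 with a standard error of 0.216 (limma, adjusted p = 4.69e-05). CXCL6 had no 50-base word in common with another gene, and the same was true of CXCL8. For CXCL5, 28 of 2489 such words were also found in transcripts of GLYR1, a gene outside the cluster.

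Leaving out shControl replicate 1, the library with the high MT-CO1 share, gave log2 fold changes of -3.62 for CXCL8, -3.69 for CXCL1, -4.12 for CXCL3, -2.93 for CXCL2, -6.12 for CXCL5 and -2.89 for CXCL6, each with an adjusted p below 0.05 from limma. In these bulk libraries fewer cells making a chemokine and less of its RNA per cell cannot be told apart.

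Per kilobase of annotated exon, CXCL8 and CXCL1 stood above the other members without overlap in both groups. In shControl, CXCL8 stood at 16911 ± 1951 and CXCL1 at 14761 ± 1748 normalized counts per kilobase (SD, n = 3 each), and the libraries of this pair overlapped. CXCL5 at 1569 ± 240.4, CXCL6 at 1485 ± 382.9, CXCL3 at 1374 ± 246.1 and CXCL2 at 1003 ± 298.7 followed, and each overlapped the next in that order. In shRNF25, CXCL8 at 1324 ± 195.1 and CXCL1 at 1104 ± 375.0 per kilobase overlapped again, and CXCL6 came next at 188.0 ± 39.2. CXCL2 at 150.2 ± 51.5 overlapped CXCL6, and CXCL3 at 88.8 ± 33.2 overlapped CXCL2. CXCL5, at 21.7 ± 9.83 per kilobase, lay below CXCL3 with no overlap. By these means CXCL5 was next after CXCL1 among the controls, where its libraries overlapped those of CXCL6, and last in the knockdown. The control order depends on the length used, since CXCL3 has 2219 bases of annotated exon and a longest coding transcript of 1075 bases.

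The make-up of the chemokine reads showed the same shift. CXCL8 made up 54.0% to 56.8% of the reads on the 6 genes in shControl and 52.4% to 60.1% in shRNF25, and CXCL1 made up 25.9% to 28.98% and 23.7% to 30.0%. The shares of these abundant members overlapped between groups. CXCL5 went from 5.72% ± 0.35 to 1.00% ± 0.22 (SD, n = 3 each), while CXCL6 went from 4.63% ± 0.85 to 7.72% ± 0.71 and CXCL2 from 2.23% ± 0.90 to 4.16% ± 0.54. The shares of these 3 genes did not overlap between groups. CXCL3 took 3.39% to 5.86% in shControl and 3.13% to 4.25% in shRNF25.

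**Figure D3:**
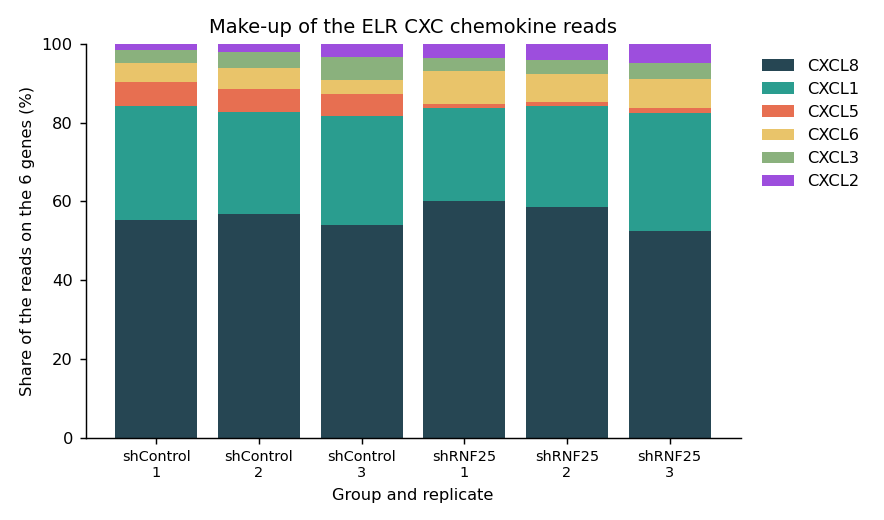
Share of the reads on the 6 ELR CXC chemokine genes (%) that fell on each gene, 1 stacked bar per library. CXCL8 and CXCL1 take most reads in each library, and the CXCL5 segment shrinks from between 5.39% and 6.08% in shControl to between 0.871% and 1.26% in shRNF25.

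Whether members changed by different amounts was tested on the log2 ratio of each pair within a library, which does not depend on the scaling of that library. For 11 of the 15 pairs the ratios of the groups did not overlap. These 11 are not separate findings, since the pairs reuse the same members and every pair with CXCL5 is among them. How often pairs of other tested genes separate in this way was not counted. Among single tested genes, groups without overlap were common, at 21.8% for lower and 20.7% for higher in shRNF25. The exact permutation test gave p = 0.1 for each of these 11, the smallest it can give here, and 0.136 after Benjamini-Hochberg adjustment over the 15 pairs, so no pair could pass a threshold of 0.05. CXCL5 had the lower log2 fold change against each other member, with a difference between 2.23 ± 0.29 for CXCL3 and 3.48 ± 0.38 for CXCL2 (± standard error over libraries). The ratio of CXCL6 to CXCL8 was higher in shRNF25 by 0.71 ± 0.15 on the log2 scale, and that of CXCL2 to CXCL8 by 0.93 ± 0.38. The ratios of the groups overlapped for CXCL1 against CXCL8 (difference -0.11 ± 0.17), CXCL1 against CXCL3 (0.21 ± 0.25), CXCL3 against CXCL8 (-0.31 ± 0.31) and CXCL2 against CXCL6 (0.22 ± 0.49). CXCL5 and CXCL6, whose promoter stretches printed above are alike, had nearly the same control level per kilobase, and the log2 ratio of CXCL5 to CXCL6 went from 0.32 in shControl to -2.94 in shRNF25.

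The members did not vary alike among the control libraries. CXCL1, CXCL5 and CXCL8 were highest in shControl replicate 1, CXCL6 was highest in replicate 2, and CXCL2 and CXCL3 were highest in replicate 3. In shRNF25 all 6 members were highest in replicate 3. The coefficient of variation in shControl ranged from 11.5% for CXCL8 to 29.8% for CXCL2, and in shRNF25 from 14.7% for CXCL8 to 45.2% for CXCL5.

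Other chemokine genes lie among the members in the cluster, PF4V1 between CXCL6 and CXCL1, and PF4 and PPBP between CXCL1 and CXCL5. PPBP, the precursor of the platelet chemokine CXCL7 and itself an ELR chemokine, had 34, 20 and 18 reads in shControl and 0, 2 and 0 in shRNF25. Its summed level was 2.41% of the control level with an exact counting interval of 0.287% to 9.04% (95%, counting error only), and it was called lower (log2 fold change -4.18 with a standard error of 0.527, adjusted p = 0.000868). PF4, a platelet chemokine without the ELR motif, had 14, 15 and 20 reads in shControl and 2, 4 and 8 in shRNF25. It was called lower at -1.91 (standard error 0.446, adjusted p = 0.0158), but without shRNF25 replicate 1 or 2 the adjusted p was 0.0595 or 0.0560. PPBP and PF4 reached the filter of 10 normalized counts only in shControl, so a call of lower was the only one possible for them. PF4V1 had at most 3 reads in any library. PF4 and PF4V1 share 13.7% and 16.1% of their 50-base words with each other.

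Genes on either side of the cluster were called in both directions. Of 15 neighbours, 12 were tested, with a median log2 fold change of -0.12. Of these, 3 were called lower (25%, beside 7.10% of all tested genes). A further 1 was called higher (8.65% of all tested genes were called higher). MTHFD2L, the gene next to CXCL2, whose start is 373.7 kb from that of CXCL8, was at 279.1 to 321.7 in shControl and at 248.4 to 299.8 in shRNF25, with overlap. EPGN and AREG, ligands of the epidermal growth factor receptor, were lower at -1.64 and -1.16, and EREG between them was at -0.10 (adjusted p = 0.846). MTHFD2L and EREG were named after their values were seen. RASSF6, on the other side of CXCL8, was lower at -1.08. PARM1 was higher at 1.09, and ANKRD17 was the most abundant neighbour not called, at -0.24 (adjusted p = 0.362).

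**Figure D4:**
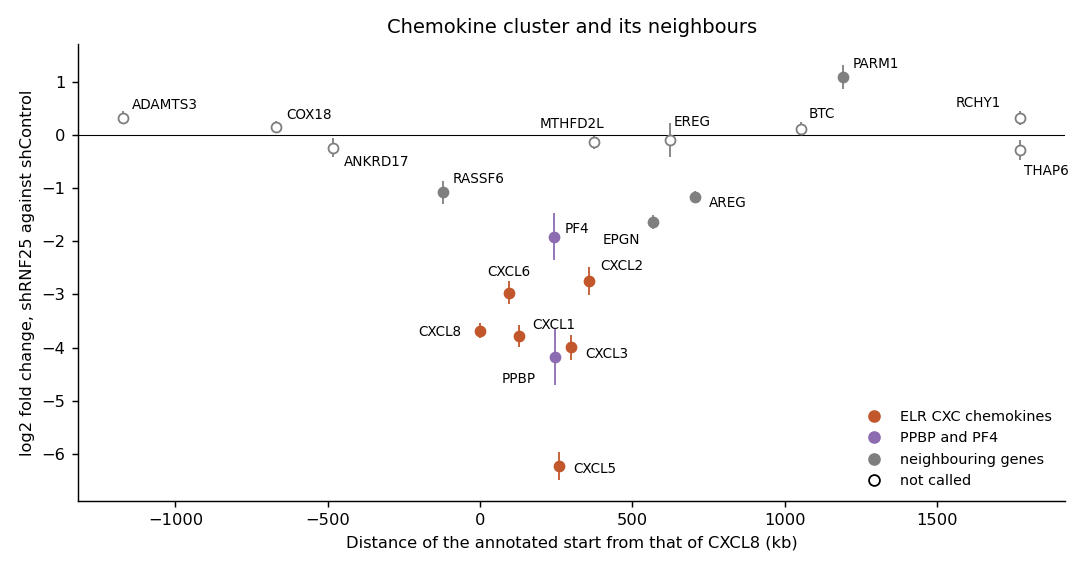
Log2 fold change in shRNF25 against shControl (points, with limma's standard error as bars) by distance in kb of each annotated start from that of CXCL8. Open points were not called. The ELR CXC chemokines lie between -2.74 and -6.22, below every tested neighbour outside the cluster.

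The receptors CXCR1 and CXCR2 and the decoy receptor ACKR1 were not among the genes listed. Of the 8 other CXC chemokines looked for, 5 were listed and 3 tested, and all 3 were lower. CXCL10 and CXCL11, interferon-inducible ligands of CXCR3, went from 71.1 to 13.7 and from 75.6 to 13.3 in mean normalized count (log2 fold changes -2.27 and -2.31), and CXCL16, a membrane-anchored chemokine, changed by -0.86. Whether they changed less than the ELR members was not tested.

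The cytokines and receptors that can induce these chemokines were described as a list. Of 28 genes, 24 were listed and 17 tested, 7 were lower and 10 were not called, with a median log2 fold change of -0.45. Among these 7, the values furthest from 0 were for the cytokine genes IL1B at -6.42 (adjusted p = 4.00e-07), IL1A at -5.02 and TNF at -4.30. The size of the TNF change rests on few reads, 56, 80 and 69 in shControl and 1, 2 and 9 in shRNF25 (standard error 0.531). LTB (-2.17), OSMR (-0.79), TLR2 (-0.71) and IL1RAP (-0.69) were the other genes called lower. The call of TLR2 was lost without any 1 of the shRNF25 libraries, and that of IL1RAP was lost in 5 of the 6 fits that left out 1 library, all but the one without shControl replicate 3. The IL-1 receptor IL1R1 was at -0.52 (adjusted p = 0.123) and the TNF receptor TNFRSF1A at 0.25 (adjusted p = 0.140), all 6 named after their values were seen. LIF was the most abundant gene of the list that was not called, at -0.45 (adjusted p = 0.0988).

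Of 26 transcription factors and IκB proteins known at chemokine promoters, 25 were tested, 6 were lower and 3 higher, with a median log2 fold change of -0.34. NFKBIA, the inhibitor IκBα and itself an NF-κB target, changed by -1.15, the NF-κB subunit REL by -0.85 and CEBPB by -0.81. The AP-1 genes FOS, FOSB and ATF3 were higher, at 2.99, 2.51 and 0.75. Leaving out any 1 of the shRNF25 libraries ended the calls of REL (largest adjusted p 0.0836) and ATF3 (0.160), and the ATF3 call was also lost without shControl replicate 1 or 2. FOSL1, the most abundant factor that was not called, was at -0.30 (adjusted p = 0.390). RELA, the gene of p65, was at -0.43 (adjusted p = 0.148) and NFKB1 at 0.08 (adjusted p = 0.651), named after their values were seen, and their libraries overlapped between groups.

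Beyond the members, 61 tested genes had a promoter with the letters GGAATTTCC. Of these, 8 were called lower (13.1%) and 4 higher, beside 7.37% called lower among the 11370 tested genes with a RefSeq promoter. The 8, named after their values were seen, were CXCL11 (-2.31), CXCL10 (-2.27), ICAM1 (-1.69), MAP3K8 (-1.21), NFKBIA (-1.15), REL (-0.85), NFKBIZ (-0.79) and SCARF2 (-0.73). The 4 higher ones were TSPEAR-AS1 (3.36), an antisense RNA, ZNF442 (1.36), ACYP2 (0.94) and MSRB3 (0.69), which are 6.56% of the 61 genes beside 7.66% of all tested genes with a promoter. The calls of SCARF2 and ACYP2 were lost without any 1 of the shRNF25 libraries and that of ACYP2 also without shControl replicate 2. The ZNF442 call was lost without shRNF25 replicate 1 or 3, and the MSRB3 call without shRNF25 replicate 2 or 3. TSPEAR-AS1, with means of 2.87 in shControl and 29.7 in shRNF25, passed the filter on low values through shRNF25 only. The median log2 fold change over all 61 genes was -0.11.

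Chemokine transcripts are also known for AU-rich elements, which shorten the life of a mRNA. The letters ATTTA occurred 5 to 11 times in the annotated 3′ UTR of each member, from 5.36 per kilobase in CXCL6 to 13.9 per kilobase in CXCL2. The median over 15372 listed genes was 1.63 per kilobase, and 8.80% of those genes reached 5 per kilobase, as all 6 members did. The 95th percentile was 6.12 per kilobase, which CXCL5 and CXCL6 did not reach. CXCL5 had 5.51, CXCL1 7.08, CXCL8 7.19 and CXCL3 10.4 per kilobase. The part of these letters in the falls was not tested. Of 19 regulators of such transcripts, all were tested, 3 were lower and 16 were not called, with a median log2 fold change of -0.12. ZC3H12A, an endonuclease of inflammatory mRNAs, changed by -2.01, the decay factor ZFP36L1 by -0.81 and TRAF3IP2, an adaptor of IL-17 receptors, by -0.80. The ZFP36L1 call was lost in 5 of the 6 fits that left out 1 library, all but the one without shControl replicate 2, with adjusted p up to 0.111. KHSRP, the most abundant one not called, was at -0.04 (adjusted p = 0.839).

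Of 25 genes that process chemokines or present them on heparan sulfate, 24 were listed and 20 tested, 5 were lower and 3 higher, with a median log2 fold change of -0.04. The proteases MMP9 and CTSS were lower at -3.14 and -2.56, as was the peptidylarginine deiminase gene PADI4 at -1.64. The proteoglycan gene SDC2 (2.33), the dipeptidyl peptidase gene DPP4 (1.47) and the collagenase gene MMP1 (0.86) were higher. The MMP1 call was lost without any 1 of the shRNF25 libraries and without shControl replicate 2 (largest adjusted p 0.110). ANPEP, the most abundant gene not called, was at -0.16 (adjusted p = 0.442).

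Of 20 further factors of neutrophil recruitment and growth, 18 were listed and 15 tested, 11 were lower and 1 higher, with a median log2 fold change of -3.83. The list was chosen with earlier results known, and its count is no independent sign of a direction. SAA1 (-7.50) and SAA2 (-6.39), acute-phase proteins, and S100A8 (-6.06), a calcium-binding protein of myeloid cells, were lowest. The SAA genes are near copies, so their reads could be lost or exchanged. SAA2 had 419 reads in shControl and 3 in shRNF25, a level of 0.622% with an exact counting interval of 0.128% to 1.83%, and S100A8 had 373 and 3 reads, a level of 0.699% (0.143% to 2.06%). CSF3, the growth factor of neutrophils, went from 97.6 to 4.97 in mean normalized count and was named after its values were seen. The complement gene C5 was higher at 3.35, and ANXA1 was the most abundant gene not called, at -0.37 (adjusted p = 0.0412), because its fold change was under 1.5.

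**Figure D5:**
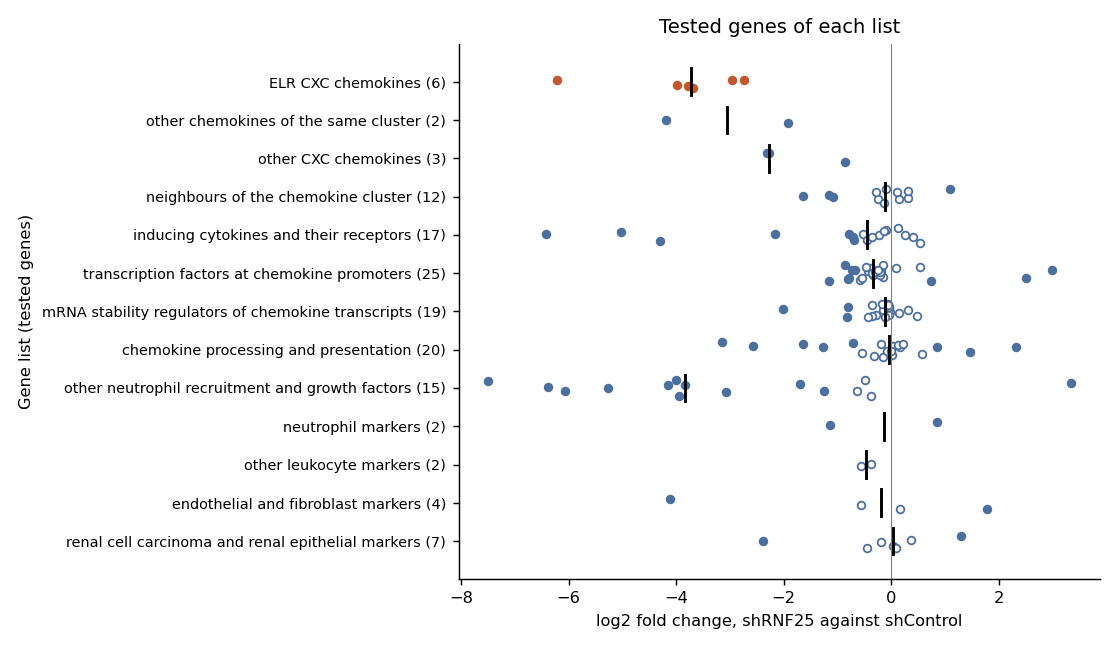
Log2 fold change in shRNF25 against shControl of each tested gene in 13 lists (number of tested genes in brackets). Filled points were called, open points were not, and black lines mark list medians. The ELR CXC chemokines (orange) all lie below -2.7, and the medians of the transcription factors, mRNA regulators and processing genes are -0.34, -0.12 and -0.04.

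Markers of other cells were described by their summed levels. Of 10 neutrophil markers, 6 (ELANE, MPO, CSF3R, FCGR3B, CEACAM8 and MNDA) were not listed, and the 4 that were summed to 53.1 to 66.9 in shControl and 48.0 to 59.2 in shRNF25. FPR1 was called lower (-1.14) and ITGAM higher (0.86), and both calls were lost in 5 of the 6 fits that left out 1 library, all but the one without shControl replicate 1. The leukocyte list summed to 42.0 to 58.5 and 33.4 to 51.9, and its 2 tested genes, CSF1R (-0.56) and PTPRC (-0.38), were not called. The endothelial and fibroblast list summed to 506.9 to 728.5 and 518.1 to 674.3, most of it PECAM1 (349.9 to 549.4), whose level was above that of PAX8. CDH5 (-4.12) was lower and KDR (1.78) higher. In the renal list VIM (1.31) was higher and ANGPTL4 (-2.38) lower, the latter with 3550 in shControl replicate 3 against 448.8 and 452.5 in the others. The ANGPTL4 call was lost without any 1 of the shRNF25 libraries (largest adjusted p 0.0989). The part of these genes in the chemokine result was not tested.

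The genes whose profile over the 6 libraries was most like that of the chemokines were found by the root mean square difference from the median member profile on the log2 scale, each profile centred on its control mean. The nearest was IL6 (0.208), followed by LCN2 (0.284), BDKRB2 (0.341), BCL2A1 (0.342) and AZGP1 (0.375). IL6, a cytokine of the acute-phase response, went from 4543, 3551 and 3016 to 268.8, 234.6 and 264.0, and LCN2, an iron-sequestering protein of neutrophil granules and injured epithelium, from 65323, 64778 and 52351 to 3585, 3954 and 3810. Neither IL6 nor LCN2 was highest in shRNF25 replicate 3, where every member was. AZGP1 rests on 5, 2 and 4 reads in shRNF25. Among the members, CXCL1 (0.0899) and CXCL8 (0.0988) lay nearest to that median and CXCL5 (1.77) furthest from it. CXCL3 (0.320), CXCL6 (0.569) and CXCL2 (0.772) also lay further from it than IL6 and LCN2 did. With a pseudocount of 5 in place of 1, 3 of these 5 genes were among the nearest 5.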

How the data were processed

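RNA-seq of 6 SW839 libraries was analysed (3 shControl, 3 shRNF25), grouped by title and genotype label. The shRNF25 plasmid is named in the treatment text of all samples, also the controls. According to the paper and the submitters' processing notes, the authors trimmed reads with fastp, aligned them to GRCh38 with HISAT2, counted them with HTSeq and tested them with DESeq2. Annotation and strand setting are not given in the sources used here. The authors deposited 1 table of normalized counts, a signal that can be fractional. Values were whole multiples of 1 step per library, so whole reads were recovered for 100% of values (tolerance 0.001 reads), and the inverse of the step was DESeq2's size factor. Low counts limit PPBP, PF4, TNF and other genes with few reads in shRNF25, and intervals cover counting error only.

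Values were taken as log2(normalized count + 1) and fitted with limma 3.58.1 (lmFit, eBayes with a trend, no covariates) in R 4.3.3 on genes with at least 10 in at least 3 libraries, since the table holds normalized values. Fold changes on this scale understate the change of low genes. PPBP, PF4, TNF, CSF3, SAA1, SAA2, S100A8, CDH5 and AZGP1 reached the filter only in shControl, and TSPEAR-AS1 only in shRNF25. Each of these could be called in a single direction only. Members, lists, motifs and tests were chosen with earlier results of these data known. Named genes were the 6 members, RNF25, PPBP, PF4, PF4V1 and the receptors, from each further list up to 3 called genes with the largest change per direction and the most abundant gene not called, and the 5 genes nearest to the member profile. Others are marked, or are list markers. Positions, exon lengths and transcript words come from GENCODE 29 and promoters from RefSeq (GRCh38.p14), both matched by symbol. Promoters were found for 8 of the 9 chemokine genes of the cluster. The fit was tested on simulated data. Alternatives were pseudocounts of 0.5 and 5, no filter, a filter of 50, quantile normalization, rescaling on the median ratio of genes with means from 100, edgeR 4.0.16 and DESeq2 1.42.0 on recovered reads, the replicate block, library weights and each library left out.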

Additional observations from a re-analysis of the deposited data

How the results depend on the processing

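Every member kept its direction and an adjusted p below 0.05 under all 16 alternative fits, with log2 fold changes of -4.05 to -3.57 for CXCL1, -3.01 to -2.52 for CXCL2, -4.28 to -3.84 for CXCL3, -6.56 to -6.02 for CXCL5, -3.19 to -2.80 for CXCL6 and -3.79 to -3.45 for CXCL8. The largest adjusted p was 0.00246, for CXCL2. RNF25 ranged from -1.34 to -1.15. PPBP kept its call in the 15 fits that tested it and ranged from -5.37 (DESeq2) to -2.43 (pseudocount 5), and PF4 lost its call without shRNF25 replicate 1 or 2. The filter of 50 left PPBP and PF4 untested. In the other lists 35 to 44 genes were lower and 8 to 12 higher, against 43 and 11 of 128 tested, a number that itself changes with the filter. The recovered reads gave 1133 lower and 1525 higher genes in edgeR and 1220 and 1414 in DESeq2, against 1175 and 1432. The replicate numbers did not pair the libraries (correlations of deviations between -0.0874 and 0.0471 over 3 pairs). With the replicate block CXCL5 was at -6.22 and all 6 members were still called lower, and 1193 genes were lower and 1398 higher. Rescaling on the median ratio left 976 lower and 1608 higher genes, the filter of 50 left 987 and 898 of 12755 tested, and fits without 1 shRNF25 library called 813 to 827 genes lower and 748 to 831 higher. Depth limits PPBP, PF4 and PF4V1, not the members, which had at least 42 reads in every library.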
